A study of Mus musculus with 6 samples.

Results

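Ltbp2, a latent TGF-beta binding protein of the extracellular matrix, was the 1 gene of the TGF-beta ligands, receptors and latent binders that rose past the threshold in EGFP-high keratinocytes. The set was 10 genes fixed by name: the ligands Tgfb1, Tgfb2 and Tgfb3, the receptors Tgfbr1, Tgfbr2 and Tgfbr3, the latent binders Ltbp1, Ltbp2 and Ltbp3, and the TGF-beta induced matrix protein Tgfbi. They were found through the symbols of the platform annotation, which gave 12 of the 12422 probe sets that are not controls, so all 10 of the 8251 named genes were on the array. Tgfb3 and Tgfbi had 2 probe sets each. The samples were keratinocytes isolated from the skin of K15-EGFP transgenic mice, in which a keratin 15 promoter drives enhanced green fluorescent protein (EGFP). Flow cytometry gave 3 samples of EGFP-high and 3 of EGFP-negative cells, both positive for α6 integrin, and each was read on 1 Affymetrix mouse array. The transgene and the α6 integrin gate are therefore common to both groups, and EGFP follows the activity of the promoter rather than a cell's origin. A shared gate does not mean equal levels, and Itga6, the α6 integrin gene, read lower in EGFP-high cells. The labels give no strain, age or sex and do not say whether replicates are separate animals. The p-values thus reflect the variation among these 6 arrays, which may include technical variation.

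TGF-beta is secreted as a latent complex in which the mature dimer is held by its own propeptide. The propeptide is linked to a latent TGF-beta binding protein, which anchors the complex to matrix fibres. Released ligand binds the type II receptor Tgfbr2, which recruits and activates the type I receptor Tgfbr1, and Smad proteins carry the signal to the nucleus. Tgfbr3, also called betaglycan, is a coreceptor that presents ligand, Tgfb2 in particular. Ltbp2 belongs to the same family as Ltbp1 and Ltbp3 but does not bind the latent ligand as they do, and is known as a component of microfibrils. In the skin, TGF-beta restrains keratinocyte growth and takes part in the hair cycle. The keratin 15 promoter is known to be active in the bulge, the part of the hair follicle that holds its stem cells.

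The stretches of 250 bases before the RefSeq gene starts of Ltbp2, Ltbp1 and Tgfb2 are shown because these 3 genes had groups that did not overlap, with most values of at least 1 group above the control probe sets. They were picked after the values were seen. They are on the GRCm38.p6 build, 5′ to 3′, at chr12:84876492-84876741, minus strand for Ltbp2, chr17:75005279-75005528, plus strand and chr17:75178531-75178780, plus strand for the upstream and the downstream start of Ltbp1, and chr1:186705990-186706239, minus strand for Tgfb2. Capitals mark the Smad-binding core CAGAC, or its reverse complement GTCTG, and the cyclic AMP response element TGACGTCA.
Ltbp2: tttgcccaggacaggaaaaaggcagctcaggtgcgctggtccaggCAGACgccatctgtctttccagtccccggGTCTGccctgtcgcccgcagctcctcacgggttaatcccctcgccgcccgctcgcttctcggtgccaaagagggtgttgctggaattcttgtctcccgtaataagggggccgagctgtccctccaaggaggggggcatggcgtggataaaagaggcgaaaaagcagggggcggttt
Ltbp1 upstream start: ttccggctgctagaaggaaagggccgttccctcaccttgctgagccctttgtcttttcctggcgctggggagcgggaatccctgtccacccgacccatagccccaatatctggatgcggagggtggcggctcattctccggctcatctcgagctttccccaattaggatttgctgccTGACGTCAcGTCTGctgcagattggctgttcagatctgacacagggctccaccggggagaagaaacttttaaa
Ltbp1 downstream start: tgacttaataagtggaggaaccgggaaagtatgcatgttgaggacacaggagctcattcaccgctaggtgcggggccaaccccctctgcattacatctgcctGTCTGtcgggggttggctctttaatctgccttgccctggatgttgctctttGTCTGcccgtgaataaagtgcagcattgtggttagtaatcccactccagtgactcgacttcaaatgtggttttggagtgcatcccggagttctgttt
Tgfb2: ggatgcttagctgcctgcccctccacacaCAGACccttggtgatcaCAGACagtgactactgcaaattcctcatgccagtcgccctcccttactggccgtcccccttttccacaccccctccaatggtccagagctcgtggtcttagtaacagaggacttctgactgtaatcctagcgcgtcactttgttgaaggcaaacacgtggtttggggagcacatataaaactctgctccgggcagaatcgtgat
CAGAC or GTCTG was found 2 times before Ltbp2, 1 time and 2 times before the starts of Ltbp1, and 2 times before Tgfb2. On either strand this core occurs in 42.2% of the 32851 windows of the same length in the RefSeq promoter table, so it is common. TGACGTCA, searched after the Ltbp1 sequence had been read, was found 1 time, before the upstream start of Ltbp1, and occurs in 1.55% of all windows. It does not overlap the nearby core. The AP-1 motif TGANTCA, in which N is any base, was in 0 of the member windows, against 6.75% of all. In all, 8 of the 10 genes had an entry in the table, with 10 windows. The arrays measure transcripts and not binding, so these matches describe sequence alone.

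A probe set was tested where its mean log2 value exceeded the 40th percentile, a level near an intensity of 44.5, and called at an adjusted p under 0.05 (limma, Benjamini-Hochberg over 7453 tested probe sets). Differences are of log2(intensity + 19.3), which shrinks the change of dim genes. The level of an absent transcript was read from 19 bacterial and yeast control probe sets, whose 95th percentile lay between 25.5 and 42.3 on the 6 arrays. The array of EGFP-high replicate 1 lay nearest to the EGFP-negative arrays on the first principal component. The keratinocyte genes Col17a1 (6527.3 to 8601.8 over the 6 arrays) and Trp63 (1021.5 to 1672.3) were read well above the controls in both groups. Krt14 and Krt15 read at most 22.2 and 7.4, within the range of those controls. Krt5 read 16.8, 48.9 and 21.6 in EGFP-high against 11.7, 12.6 and 10 in EGFP-negative cells, with 1 of 6 values over the control 95th percentile. Of 6 tested bulge markers 5 were higher and 0 lower in EGFP-high cells, but 3 of the 5 (Cd34, Fgf18 and Lgr5) passed the filter only through their EGFP-high values and had to differ, so the count gives no support.

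Among the TGF-beta genes 6 of 10 passed the filter, and of these 1 was higher and 0 were lower in EGFP-high cells. Over all tested probe sets 3.02% were called higher and 2.17% lower, and the median log2 difference was 0.23 for the 6 genes against -0.0017 for all. At an unadjusted p under 0.05, limma gave 1 member higher (Ltbp2) and 1 lower (Tgfb2) of 6, where 8.47% of all tested probe sets were higher and 8.68% lower at that level. By intensity alone, all EGFP-high arrays lay above all EGFP-negative arrays on 3 of the 12 probe sets and below them on 4, where 9.97% and 8.45% of all probe sets did so. Of the 4 that lay below, 1 (Tgfb2) was above the control 95th percentile on all arrays. Probe sets of Tgfb1, Tgfbr2, Tgfbr1 and Ltbp1, and the dimmer ones of Tgfb3 and Tgfbi, did not pass the filter and are described by their values.

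**Figure D1:**
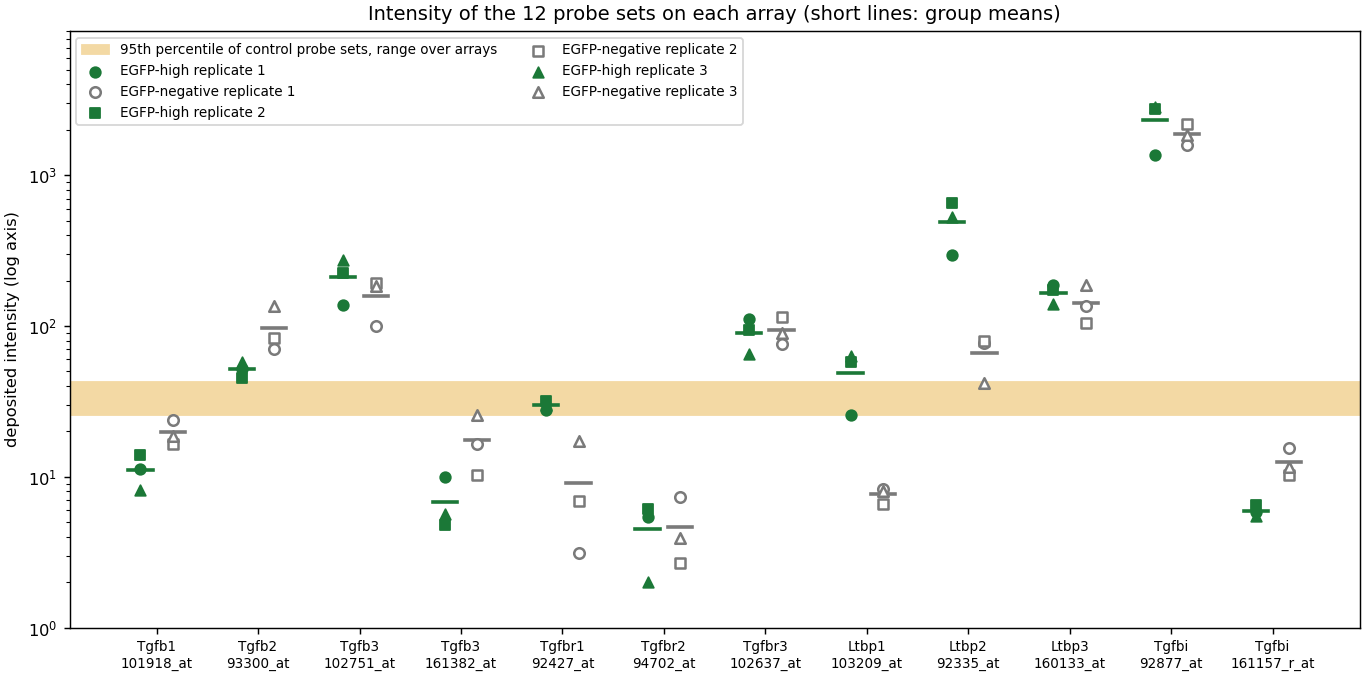
Deposited intensity (log axis) of each of the 12 probe sets on the 3 EGFP-high arrays (filled) and the 3 EGFP-negative arrays (open), with short lines for group means and symbol shape for the replicate number; the band spans the control 95th percentiles, 25.5 to 42.3. Ltbp2 shows the wide gap between groups, with 294 the lowest EGFP-high and 79.6 the highest EGFP-negative value, while both probe sets of Tgfbi and Tgfb3 sit at very different heights.

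Of the 3 ligands, Tgfb2 and the brighter probe set of Tgfb3 were tested, and neither passed the threshold in either direction. Tgfb1 was not tested. Tgfb2, the ligand that depends most on betaglycan, read 51.6, 45.2 and 57.8 in EGFP-high replicates 1, 2 and 3 and 69.9, 83.8 and 136.1 in EGFP-negative replicates 1, 2 and 3. Every EGFP-high array was below every EGFP-negative array, the closest being 57.8 and 69.9, and the spread was wider among the EGFP-negative arrays (SD 34.9 against 6.30, n = 3 each). The log2 difference was -0.67 (SE 0.24, 95% interval -1.23 to -0.12, adjusted p = 0.187). Because the groups did not overlap, every pair of the same number had to be lower. With the replicate number as a block the adjusted p was 0.0927.

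Tgfb3 was read by 2 probe sets that disagreed. The brighter one read 138.6, 224.9 and 274.2 in EGFP-high replicates 1, 2 and 3 and 99.5, 192.8 and 182.8 in EGFP-negative replicates 1, 2 and 3. The groups overlapped, although each EGFP-high array was above the EGFP-negative array of its own number. The log2 difference was 0.38 (SE 0.29, 95% interval -0.27 to 1.04, adjusted p = 0.582), and 0.165 was the adjusted p with the block. Leaving out single arrays gave 0.12 to 0.64. The dimmer one stayed at 4.8 to 10 in EGFP-high and 10.2 to 25.8 in EGFP-negative cells, the opposite order, and 1 of its 6 values exceeded the control 95th percentile. Tgfb1, the ligand found most widely in tissues, read 11.2, 13.9 and 8.2 against 23.8, 16.6 and 18.6. All 6 Tgfb1 values were within the control range, so neither group shows a measurable level on this probe set.

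Of the receptors, Tgfbr2 and Tgfbr1 read at or near control level and were not tested. Tgfbr3 read above that level, was tested and was not called. Tgfbr2, the ligand-binding type II receptor, read 2.0 to 6.1 in EGFP-high and 2.7 to 7.4 in EGFP-negative cells, far under the control 95th percentile on every array. Tgfbr1, the type I receptor kinase, read 27.9, 31.9 and 29.9 in EGFP-high replicates 1, 2 and 3 against 3.1, 6.9 and 17.4 in EGFP-negative replicates 1, 2 and 3. The Tgfbr1 groups did not overlap, but 1 of the 3 EGFP-high values and 0 of the 3 EGFP-negative values exceeded the control 95th percentile of their array. In a fit without the filter, its log2 difference of 0.82 had an adjusted p of 0.102, and with other pseudocounts the difference was 0.31 and 1.45. Tgfbr3, betaglycan, was the receptor read above the controls on all arrays, at 111.4, 94.6 and 65.5 in EGFP-high and 76.2, 115.4 and 89.9 in EGFP-negative cells. These groups overlapped fully (log2 -0.05, SE 0.23, 95% interval -0.56 to 0.46, adjusted p = 0.94).

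**Figure D2:**
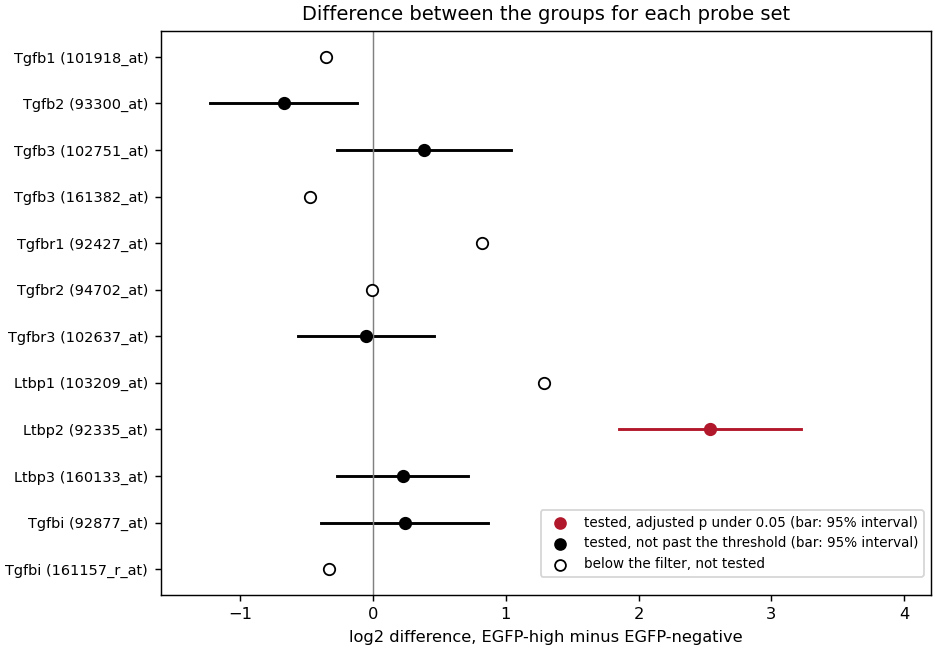
Log2 difference, EGFP-high minus EGFP-negative, for each probe set, with 95% intervals for the 6 that were tested and open points for the 6 below the filter. The interval of Ltbp2 runs from 1.85 to 3.22 and that of Tgfb2 from -1.23 to -0.12; the other 4 intervals include 0.

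Among the latent binders, Ltbp2 rose in EGFP-high cells. It read 294.4, 652.1 and 526.7 in EGFP-high replicates 1, 2 and 3 and 77.7, 79.6 and 42.0 in EGFP-negative replicates 1, 2 and 3. The lowest EGFP-high array was well above the highest EGFP-negative one, and EGFP-high replicate 1 was the lowest of its group. Group means were 491 ± 181 and 66.4 ± 21.2 (SD, n = 3 each), a ratio of 7.39. The log2 difference was 2.54 (SE 0.30, 95% interval 1.85 to 3.22, adjusted p = 0.00177). Pair by pair, the EGFP-high array read 3.79, 8.19 and 12.5 times its EGFP-negative partner for numbers 1, 2 and 3. The call held without any single array, with adjusted p between 0.000525 and 0.0155. All 3 EGFP-negative values of Ltbp2 were above the control 95th percentile of their array.

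Ltbp1, which binds latent TGF-beta covalently and docks it to fibronectin and fibrillin fibres, followed the same order at a much lower signal. It read 25.5, 58.1 and 63.3 in EGFP-high replicates 1, 2 and 3 and 8.3, 6.6 and 8.1 in EGFP-negative replicates 1, 2 and 3. The groups did not overlap, and EGFP-high replicate 1 was again the lowest of its group, here under that array's control 95th percentile of 42.3. The EGFP-negative values were at control level, so the log2 difference of 1.29 depends on the pseudocount, from 0.56 to 2.02. Ltbp1 missed the filter. Fitted without one, a setting in which 1.59% of 12422 probe sets were called higher, its adjusted p was 0.0408. Combined with another choice, that fit gave adjusted p between 0.00855 and 0.138, and over 13 such settings Ltbp1 was called in 5. It lost the call without any 1 of 5 arrays and kept it without EGFP-high replicate 1.

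Ltbp3, which also carries latent TGF-beta, did not follow the other binders. It read 187.6, 172.3 and 139.2 in EGFP-high and 136.6, 104.6 and 186.1 in EGFP-negative replicates 1, 2 and 3. The groups overlapped, and the pair of number 3 ran against the other pairs (log2 0.22, SE 0.22, 95% interval -0.27 to 0.71, adjusted p = 0.681). Ltbp4, the remaining family member, was no part of the set but was in the list of activation genes. It read 724.6, 1665.5 and 1707.5 in EGFP-high and 657.9, 1154.3 and 757.8 in EGFP-negative replicates 1, 2 and 3 (log2 0.60, adjusted p = 0.43). EGFP-high replicate 1 lay among the EGFP-negative values, and without that array the adjusted p of Ltbp4 was 0.0485. Of the 6 fits with 1 array left out, Ltbp4 was not called in 5, with adjusted p up to 0.752. Ltbp4 is named here after its values were seen.

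Tgfbi, a secreted adhesion protein first cloned as a TGF-beta induced gene, was bright in both groups. Its brighter probe set read 1368.4, 2740.8 and 2832.4 in EGFP-high and 1587.4, 2195.6 and 1856.9 in EGFP-negative replicates 1, 2 and 3. EGFP-high replicate 1 was the lowest of all 6, and the other EGFP-high arrays were the highest. The log2 difference was 0.24 (SE 0.28, 95% interval -0.39 to 0.86, adjusted p = 0.737). It was 0.54 after quantile normalization (adjusted p = 0.413), and 0.06 to 0.58 with single arrays left out, the highest without EGFP-high replicate 1 (adjusted p = 0.13). The dimmer one read 5.5 to 6.5 and 10.3 to 15.5, at control level on every array. Averaging both probe sets turned the sign of the difference, as it did for Tgfb3.

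**Figure D3:**
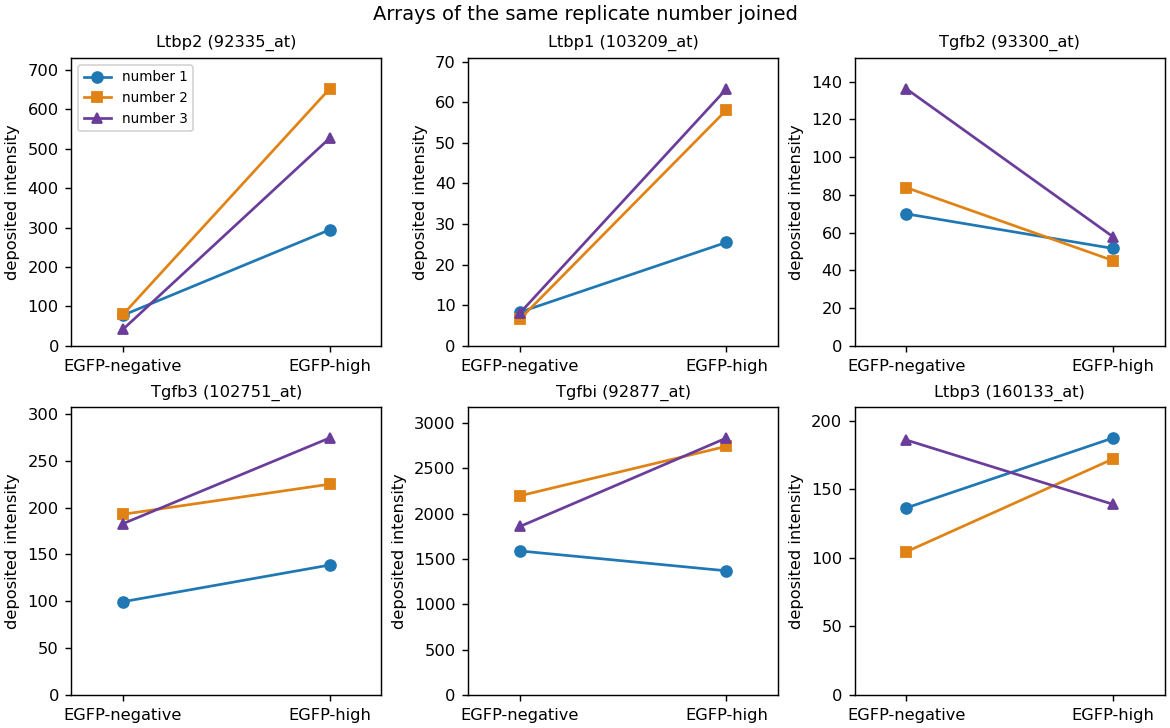
Deposited intensity (linear axis from 0) of 6 probe sets in EGFP-negative and EGFP-high cells, with the arrays of each replicate number joined by a line. All 3 lines rise for Ltbp2, Ltbp1 and Tgfb3 and fall for Tgfb2, whereas 1 line of Tgfbi (number 1) and 1 of Ltbp3 (number 3) runs against the others. For Ltbp2, Ltbp1 and Tgfb2 the shared direction follows from groups that do not overlap.

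The wider pathway was read from a list of 83 other genes in 5 roles, of which 68 were on the array and 50 passed the filter. Of the 50, 5 were higher and 0 lower in EGFP-high cells, beside the 3.02% and 2.17% of all tested probe sets. Of the 5, 1 (Fstl1) passed the filter only through its EGFP-high values, so it adds no support to this count or the next ones. At an unadjusted p under 0.05 limma gave 12 higher and 2 lower, beside the 8.47% and 8.68% given above for all tested probe sets. The median log2 difference of the 50 was 0.13. With the replicate number as a block 6 were higher and 4 lower, where 5.13% and 5.31% of all tested probe sets were called. The genes added by the block were Smad7, an inhibitory Smad, on the higher side (adjusted p = 0.0424) and, all listed as targets on the lower side, Cdkn1a (0.00939), Tsc22d1 (0.00155), Bhlhe40 (0.00234) and Junb (0.00922). Each of these 4 targets was lower in 3 of 3 pairs, but the block fit that picked them uses those same differences, so this adds no support.

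The calls lay among targets and in the activin arm. Of 18 target genes 4 passed as higher and 0 as lower, beside 3.02% and 2.17% of all tested probe sets. Of the 18 differences 9 were above 0, and their median was 0.00025 on the log2 scale. The list does not sort targets by the direction in which TGF-beta moves them, so these numbers do not measure its activity. Ccn2, a matrix-associated growth factor induced by TGF-beta in many cells, read 1229.3, 1918.1 and 2417.0 against 122.1, 253.6 and 318.3 (log2 2.94, adjusted p = 0.00165). Tnc, the matrix glycoprotein tenascin C, read 172.4, 163.0 and 225.8 against 53.8, 35.8 and 55.5 (log2 1.61, adjusted p = 0.00239). In Tnc as in Ccn2 the groups stood well apart. Postn, periostin, had a log2 difference of 2.49 (adjusted p = 5.18e-05). Sparc, a collagen-binding matrix protein, had one of 2.34 (adjusted p = 0.0129), but was no longer past the threshold when EGFP-high replicate 3 was left out (adjusted p = 0.0698). These 4 encode secreted matrix proteins. Postn, Ccn2 and Ltbp2 also belong to published bulge signatures that may draw on these arrays, so their direction here is not independent evidence.

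The targets added by the block had lower values in EGFP-high cells, short of the threshold in the unpaired fit and past it with the block. Cdkn1a, the cell cycle inhibitor p21 that TGF-beta induces in keratinocytes, read 364.2, 509.0 and 283.7 in EGFP-high and 1139.7, 778.7 and 611.9 in EGFP-negative replicates 1, 2 and 3. Its groups did not overlap (log2 -1.08, adjusted p = 0.0548, and 0.00939 with the block). Junb, an AP-1 factor, averaged 1027 ± 628 against 1866 ± 1062 (log2 -0.90, adjusted p = 0.407, and 0.00922 with the block). Col1a2, a type I collagen chain, averaged 708 and 713 on its brightest probe set, of a type with relaxed probe selection. Another Col1a2 probe set read 76.7, 237.2 and 171.7 against 15.3, 12.5 and 15.1, the last 3 at control level. It passed the filter only through the EGFP-high arrays, so its difference is given without a test.

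In the activin arm 1 of 8 genes was higher and 0 lower, beside the same 3.02% and 2.17% of all tested probe sets. The 1 gene was Fstl1, a secreted follistatin-like glycoprotein, at 93.8, 103.9 and 87.3 against 35.4, 34.7 and 41.1 (log2 1.02, adjusted p = 0.0162). Fstl1 passed the filter only through its EGFP-high values, so its call gives no support, and it was not tested under the stricter filter. The Fstl1 groups were well separated, yet the call was lost without any 1 of 3 arrays, most clearly when EGFP-high replicate 2 was left out (adjusted p = 0.089). Fst, follistatin, which binds activin, averaged 579 ± 283 against 509 ± 110 (adjusted p = 0.943). Acvr2a, an activin type II receptor, averaged 381 ± 41.2 against 297 ± 26.6 (adjusted p = 0.321).

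In the remaining roles 0 genes were called in either direction. Of 10 activation genes, limma gave 2 higher and 0 lower at an unadjusted p under 0.05, to be read against the same 8.47% and 8.68%. Of the integrin subunits that take part in activation, Itgav averaged 1221 against 1271 (adjusted p = 0.887) and Itgb1 2083 against 1723 (adjusted p = 0.586), both on probe sets that can share signal with related transcripts. Itgb1 was higher in 3 of 3 pairs on each of its 2 tested probe sets. Itgb5 averaged 351 ± 46.3 against 229 ± 160 (log2 0.87, adjusted p = 0.449). Its EGFP-negative replicates 1, 2 and 3 read 372.9, 256.9 and 56.2, and the pair of number 1 ran the other way. The second tested probe set of Itgb5 averaged 156 against 128 (log2 0.26, adjusted p = 0.562). Of 6 coreceptors and receptor regulators none reached an unadjusted p of 0.05 on its brightest probe set. There Fkbp1a, an immunophilin that holds the type I receptor inactive, averaged 746 against 589 (adjusted p = 0.37), and Eng, endoglin, 232 against 307 (adjusted p = 0.331). A second probe set of Bgn, in the same role, read 122.7, 235.5 and 267.5 against 98.3, 92.0 and 83.7, without overlap. Its log2 difference was 0.98 (limma unadjusted p = 0.00441, adjusted p = 0.0712, and 0.0364 with the block). Of 8 Smads and nuclear partners 3 were higher and 0 lower at an unadjusted p under 0.05, against that same background. Smad7 averaged 252 ± 36.5 against 150 ± 44.7 (log2 0.70, adjusted p = 0.119, and 0.0424 with the block), and the corepressors Ski and Tgif1 593 against 449 (adjusted p = 0.274) and 535 against 510 (adjusted p = 0.88).

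**Figure D4:**
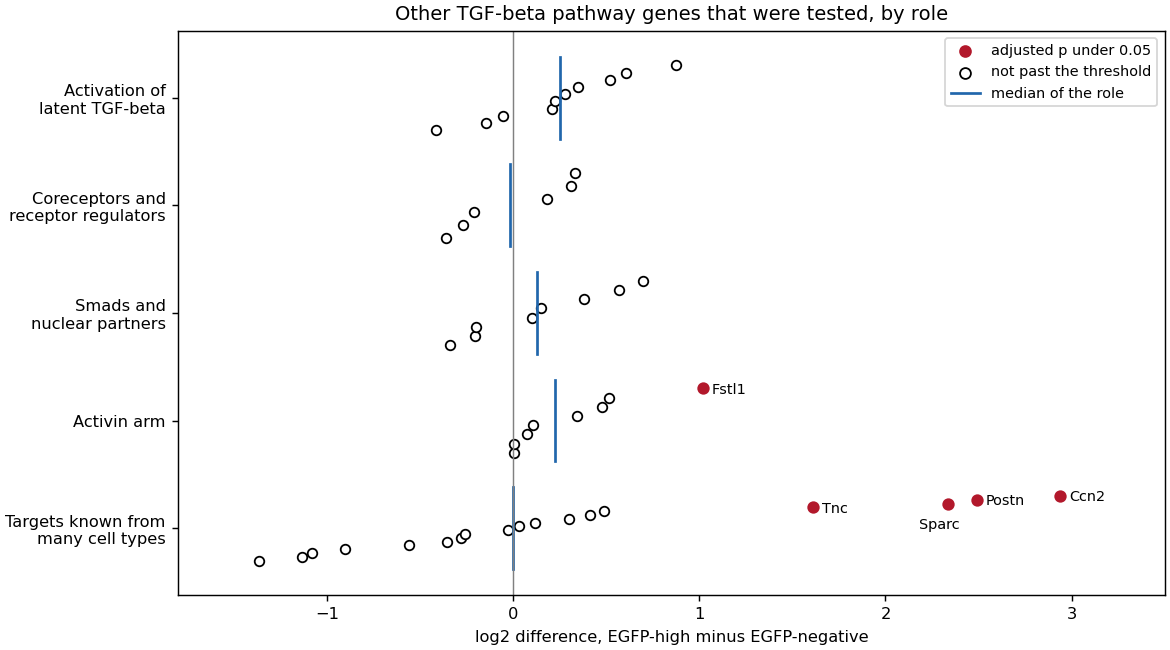
Log2 difference, EGFP-high minus EGFP-negative, of the 50 tested genes of the wider pathway, in 5 rows by role, with the median of each role as a vertical line and filled points for genes past the threshold. The 5 called genes are Fstl1 in the activin arm and Tnc, Sparc, Postn and Ccn2 among the targets, at log2 differences of 1.02, 1.61, 2.34, 2.49 and 2.94. Fstl1 passed the filter only through its EGFP-high values.

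Because latent binders and matrix targets are also made by dermal cells, markers of other cell types were read beside these results. In bulk samples a larger share of a cell type and more RNA per cell cannot be told apart. The summed intensity of 9 fibroblast markers was 2670.3 to 3375.1 in EGFP-high and 1837.7 to 2163.9 in EGFP-negative arrays. The sum runs over 18 probe sets, 4 of them of Fbln1, so bright genes and those with several probe sets weigh most. Of 5 tested fibroblast markers 1 was higher, Fbln1, a matrix glycoprotein, at 745 against 343 on its brightest probe set (adjusted p = 0.0487). Another Fbln1 probe set was also called, at 401 against 88.7 (adjusted p = 0.0133). A further one, at 355 against 271, was not called (adjusted p = 0.274). The dimmest, at 40.1 against 34.1, was not tested. Pdgfra averaged 116.5 against 148.6 on its brightest probe set, with overlap (adjusted p = 0.504). The fibroblast genes Col3a1 and Pdgfrb read at most 38 and 21.6 on any array, at control level, and Dcn and Lum at most 66.7 and 58.3. Type I collagen was higher by value in EGFP-high cells on 3 of its 4 probe sets, with no overlap, as 9.97% of all probe sets were. The dimmer one of Col1a2 averaged 162 against 14.3, and those of Col1a1 238 against 171 (adjusted p = 0.397) and 49.1 against 6.60. The dimmer one of each gene was at control level in EGFP-negative cells. On the brighter one of Col1a1 the closest arrays read 217.8 and 209. The brighter one of Col1a2 overlapped. The part of fibroblast RNA in the rise of Ltbp2 was not tested. The endothelial genes Cdh5 and Tek read at most 9.7 and 10.1, and the endothelial sums overlapped (167 to 253 against 131 to 237), with 0 of 1 tested genes called. Melanocyte markers summed to 663.5 to 744.6 against 489.6 to 536.9, with 1 of 4 tested genes higher (Mitf). T cell markers summed to 162 to 355 against 242 to 299, with 1 tested gene, Thy1, lower. Some untested probe sets of the T cell receptor complex ran the other way. Cd3e read 27.7, 28.7 and 135.4 against 20.8, 19.5 and 21.7, and the brighter Cd3d probe set 18.6, 22.4 and 28.7 against 2.2, 7.2 and 7.6, both without overlap. Each exceeded the control 95th percentile on 1 EGFP-high array and 0 EGFP-negative arrays. The dimmer Cd3d probe set averaged 1.57 against 1.87, and those of Cd247 21.9 against 11.1 and 7.67 against 22.2, all with overlap. Cd3g read 46.7, 62.8 and 65.3 against 48.4, 6.1 and 16.7, over the control 95th percentile on 3 EGFP-high arrays and 1 EGFP-negative array. Their part in the results was not tested. Sums of Langerhans cell and macrophage markers (645 to 767 against 541 to 726, 0 of 3 tested called) and of smooth muscle markers (134 to 182 against 134 to 239, 0 of 2 called) overlapped. Of 6 tested basal keratinocyte markers 0 were higher and 1, Itga6, was lower.

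The genes whose values tracked Ltbp2 most closely over the 6 arrays were Crip1, St6galnac5, Dlgap4, Wwp2 and Ptprk, with Pearson correlations of 0.995, 0.994, 0.993, 0.99 and 0.99 of log2 values. Each was brighter in EGFP-high cells, Crip1 for example at 1567 against 358. The 6 arrays fall into 2 groups, so genes that differ between the groups share that difference in these correlations, which are a description.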

How the data were processed

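RNA of 3 EGFP-high and 3 EGFP-negative keratinocyte samples was read on 1 array each. Groups and replicate numbers come from the sample titles. The authors deposited 1 linear intensity per probe set and array. The trimmed mean was 150.1 on every array, which shows scaling before deposit. No source used here gives the software, background correction or filters. Medians of the arrays differed by at most 1.09 times and were not rescaled. No read depth applies, and the number of arrays limits the precision.

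Intensities were analysed as log2(value + 19.3), the pseudocount being the 25th percentile of deposited values above 0. After leaving out 66 control rows, probe sets above the 40th percentile of mean log2 value were tested with limma 3.58.1 (lmFit, eBayes with intensity trend, two-sided) in R 4.3.3, Benjamini-Hochberg adjusted, without a replicate term. Of 12422 probe sets 10833 had 1 gene symbol, 396 several and 1193 none listed. Entrez identifiers matched 10817 of them to a RefSeq table (GRCm38.p6) and changed 0 symbols. Genes were represented by their brightest probe set. The procedure was tested on simulated data.

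Same-number arrays deviated together from their group means (correlations 0.336, 0.368 and 0.305), all 3 over the limit of 0.1. They are compared as pairs by value and in the replicate block fit, an alternative that called 778 probe sets. The main fit, with 387 called, was unpaired. Blocked values are printed where they change a call or a count, and for Tgfb2 and the brighter probe set of Tgfb3, where they do not.

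Every member is named, with the pathway genes past the threshold, the 2 brightest others in each role, the 5 genes most correlated with the leading member, and any gene said to be named after its values were seen. Cdkn1a, Tsc22d1, Bhlhe40, Smad7, Itgb5 and the second probe sets of Col1a2, Bgn and Itgb5 were named after their values were seen. So were the further probe sets of Fbln1. The members, the 5 role lists and the 8 marker lists were chosen with earlier results of these data known. Alternatives varied the pseudocount, filter, normalization, trend, replicate block, probe set summary and arrays. Promoter sequences are RefSeq's.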

Additional observations from a re-analysis of the deposited data

How the results depend on the processing

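Of 84 refits of the tested members, direction and side of the threshold held except in 4, all of members not past the threshold. Averaging both probe sets gave log2 differences of -0.047 for Tgfb3 and -0.047 for Tgfbi, and Tgfbr3 ranged from -0.19 to 0.12 with single arrays left out. Ltbp2 stayed between 1.94 and 2.96 over the other settings. Member genes higher came to 2 without a filter (Ltbp1 added) and 1 in every fit with an array left out, with 0 lower in all. Pathway genes higher came to 7 without a filter (Fmod and Inhbb added), 7 with the mean of all probe sets (Col1a1 and Col1a2 added), 3 with the stricter filter, which tests fewer genes, and 3 to 6 with arrays left out, the lowest without EGFP-high replicate 3. Pathway genes lower came to 4 with the replicate block, 1 with the stricter filter, 1 with the mean of all probe sets and 0 to 1 with arrays left out. That 1 was Cdkn1a, in the fits that left out EGFP-high replicate 2 and EGFP-negative replicate 3. The causes were not tested. The unfiltered fits of dim members and the fit without either array numbered 1 were chosen after seeing the data; the latter gave 1 member and 4 pathway genes higher and 0 lower in both. The replicate block changed no call among members. Dim members, at control level, cannot be ranked.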
